A study of Mus musculus with 6 samples.

Results

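The Slc25a genes encode the solute carriers of the mitochondrial inner membrane. They were taken as every gene whose symbol is Slc25a followed only by digits, which gave 47 of the 49315 genes in the deposited table. RNA was sequenced from germinal vesicle (GV) oocytes, which are fully grown eggs arrested before the first meiotic division with the nucleus still intact. The oocytes came from 3 Rpa1 OcKO mice, which lack Rpa1 in the oocyte only, and from 3 Control mice. All mice were 4 to 5 weeks old and had been primed with PMSG, the serum gonadotropin that makes follicles grow. Each library held about 20 oocytes of 1 mouse, freed of cumulus cells. The labels used here name neither the Cre line nor the alleles that the Control mice carry.

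Rpa1, the large subunit of the protein that coats single-stranded DNA, stood at 6.25 ± 1.89 CPM (counts scaled to library size and TMM factor) in OcKO and 150.2 ± 8.86 CPM in Control (SD, n = 3 each). The libraries held 36280148 to 44575222 counts. More genes had counts in OcKO (19915 to 22393) than in Control (18330 to 19351), in every library (exact two-sided permutation p = 0.1, the smallest that 3 against 3 libraries allow). All 10 oocyte markers were present in both groups, with summed levels of 24990 to 30700 CPM in OcKO and 29850 to 48720 CPM in Control. The 11 granulosa and cumulus markers summed to 91.4 to 110.2 CPM in OcKO and 63.2 to 103.1 CPM in Control. Ptx3 was at 0 in all libraries. Has2 (195, 90 and 0 counts in OcKO) and Foxl2 (2, 0 and 2 counts in OcKO) were at 0 in Control. Inha, Nr5a2, Inhba and Kitl had higher means in OcKO (26.46, 31.15, 8.86 and 7.09 CPM) than in Control (12.74, 24.08, 4.83 and 4.51 CPM). Amh and Amhr2 also had higher means in OcKO. Only Cyp19a1 and Fshr had lower means in OcKO (22.1 and 1.44 CPM) than in Control (28.2 and 2.35 CPM). The 8 theca and stroma markers summed to 9.80 to 19.8 CPM in OcKO and 7.73 to 13.1 CPM in Control. Cyp17a1 had 20, 29 and 31 counts in OcKO and 0 in Control. Cyp11a1, Star, Col3a1 and Col1a2 had higher means in OcKO (9.21, 1.29, 0.741 and 0.313 CPM) than in Control (5.08, 0.637, 0.0652 and 0.134 CPM). Dcn, Pdgfra and Col1a1 had lower means in OcKO. The 5 endothelial markers summed to 143.1 to 238.2 CPM in OcKO and 111.4 to 159.9 CPM in Control, nearly all from Tek and Pecam1, while Emcn and Cdh5 were at 0 in Control. The 5 leukocyte markers summed to 1.05 to 7.14 CPM in OcKO and 3.37 to 12.7 CPM in Control, and the 5 erythroid markers to 0.137 to 0.660 CPM in OcKO and 0.358 to 2.85 CPM in Control. The part of these markers, and of the genes detected, in the results below was not tested.

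Most enzymes of the mitochondrial matrix depend on metabolites that cannot cross the inner membrane unaided. Slc25 proteins bind a substrate on one face of that membrane and release it on the other, usually in exchange for a second substrate. They bring in ADP and phosphate for ATP synthase, send ATP out, and carry dicarboxylates, amino acids, acylcarnitines, nucleotides and cofactors. The proteins are made in the cytosol from nuclear genes and are imported through the TOM and TIM22 complexes. The oocyte relies on mitochondrial oxidation of pyruvate for its ATP. Not every protein named by the rule works in the inner membrane: SLC25A17 is peroxisomal and SLC25A46 sits in the outer mitochondrial membrane.

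Promoter sequence is shown for Slc25a29 and Slc25a42, which were nearly silent in Control, and for Slc25a3, the abundant carrier with the smallest p. The bases are from RefSeq (GRCm38.p6), read 5′ to 3′ on the gene's strand, and end where the deposited gene model or the RefSeq transcript begins, whichever comes first. Capitals mark matches, on either strand, to the ETS-type motif CCGGAAG or to the CCAAT box.
Slc25a29, chr12:108835884-108836126, minus strand: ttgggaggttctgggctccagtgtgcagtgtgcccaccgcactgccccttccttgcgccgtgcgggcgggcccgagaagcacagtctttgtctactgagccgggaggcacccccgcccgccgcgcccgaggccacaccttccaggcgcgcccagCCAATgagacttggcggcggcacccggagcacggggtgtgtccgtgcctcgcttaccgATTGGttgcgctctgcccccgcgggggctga
Slc25a42, chr8:70212306-70212531, minus strand: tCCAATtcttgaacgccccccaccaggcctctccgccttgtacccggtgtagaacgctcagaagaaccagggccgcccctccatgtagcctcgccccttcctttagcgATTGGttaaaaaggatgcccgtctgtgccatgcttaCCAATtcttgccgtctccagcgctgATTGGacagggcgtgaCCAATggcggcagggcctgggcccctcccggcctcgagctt
Slc25a3, chr10:91124060-91124217, minus strand: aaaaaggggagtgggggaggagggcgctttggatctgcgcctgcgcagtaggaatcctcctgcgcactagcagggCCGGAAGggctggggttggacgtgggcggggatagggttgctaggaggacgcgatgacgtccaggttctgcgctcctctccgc

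The Slc25a29 stretch held 2 CCAAT matches and that of Slc25a42 held 5, while that of Slc25a3 held 1 ETS-type match and no CCAAT. Over 250 bases before the start, 36 of the 47 genes matched the promoter table, with 46 promoters between them. Promoters of 1 gene were counted separately even where they overlap, and some lie within the deposited gene model. For 36 of the 46, bases just after the start were found in a transcript of the gene. Of the 46 promoters, 45.7% held CCAAT, against 33.8% of all 32851 promoters of that length. CCGGAAG was present in 13.0% of the Slc25a promoters and 6.91% of all promoters, and TATAAA in 4.35% of the Slc25a promoters and 12.4% of all. The NRF1 core CGCATGCG was in 0 of the 46 and in 1.55% of all. Both strands were searched, and none of these motifs contains another. The median GC content was 57.4% in the Slc25a promoters and 52.4% in all. These matches describe the letters and not sites in use.

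The summed level of the family was close in the groups. The Slc25a genes together held 2231, 2026 and 1893 CPM in the OcKO libraries and 1985, 1937 and 1869 CPM in the Control libraries. The groups overlapped, and the ratio of their means was 1.06 (2050 ± 170 CPM in OcKO, 1930 ± 58.7 CPM in Control, SD, n = 3 each). In such bulk samples the number of cells of a type and the RNA per cell cannot be told apart. The mRNAs encoded in mitochondrial DNA, which specify core subunits of the respiratory chain and of ATP synthase, stood apart from this. Their sum was 1483, 1579 and 1667 CPM in OcKO and 745, 873 and 701 CPM in Control. Every OcKO library lay above every Control library, with a ratio of means of 2.04 (1577 ± 92.0 CPM in OcKO, 773 ± 89.3 CPM in Control).

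For each Slc25a count there were 0.665, 0.779 and 0.881 mitochondrial mRNA counts in the OcKO libraries and 0.375, 0.451 and 0.375 in the Control libraries. The ratio was thus higher in every OcKO library. Of the 13 mitochondrial mRNAs, all 13 had positive log2 fold changes (OcKO over Control throughout), with a median of 1.09, and in 11 every OcKO library lay above every Control library, as in 10.7% of all tested genes. edgeR's quasi-likelihood test called 0 of the 13 at an adjusted p under 0.05, where it called 0.137% of all tested genes as higher. At unadjusted p under 0.05 it had 8 as higher (5.93% of all tested genes), limma voom called 0 and DESeq2 called 8 as higher (2.97% of all tested genes). mt-Nd4, a complex I subunit, held 199.3, 250.9 and 282.0 CPM in OcKO and 92.8, 119.9 and 98.0 CPM in Control. mt-Co1, a subunit of cytochrome oxidase, held 389.4, 300.8 and 283.5 CPM in OcKO and 133.5, 169.9 and 154.8 CPM in Control. Their log2 fold changes were 1.24 (SE 0.20, adjusted p in edgeR = 0.110) and 1.09 (SE 0.20, adjusted p = 0.120). The mitochondrial rRNAs were not analysed here. All mitochondrially encoded genes together held 0.155% to 0.188% of counts in OcKO and 0.0670% to 0.0807% in Control. The mRNAs were uneven, with mt-Co2 at 7.65 CPM and mt-Co1 at 324.5 CPM in OcKO (means). How reads that fit more than 1 place were counted is not stated, and the part of this in these levels was not tested.

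**Figure D1:**
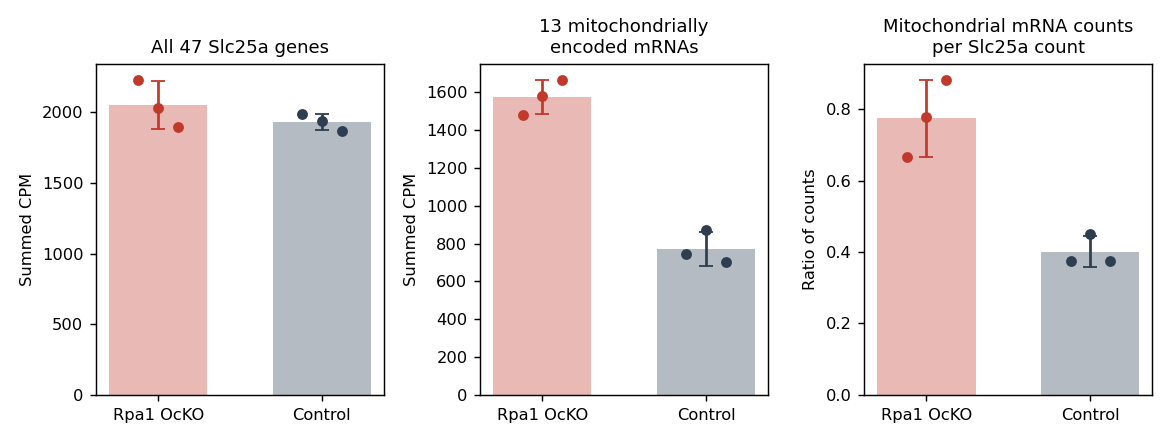
Per-library values (points) with group means (bars) and SD (error bars) for Rpa1 OcKO and Control, 3 libraries each. Left, summed CPM of the Slc25a genes, where the groups overlap; middle, summed CPM of the mitochondrially encoded mRNAs, with the OcKO libraries between 1483 and 1667 CPM and the Control libraries between 701 and 873 CPM; right, mitochondrial mRNA counts per Slc25a count.

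Counts for the family were unevenly spread. Of the 47 genes, 31 had counts in all 6 libraries, 30 had a mean level per length above 1 RPKM (TMM-scaled CPM per kilobase of gene length) and 16 above 10 RPKM. The 6 genes of highest CPM held 52.3% to 59.0% of the family's counts in OcKO and 53.8% to 59.2% in Control. Slc25a2, Slc25a41 and Slc25a43 had 0 counts in every library. A count of 0 allows at most 0.0673 to 0.0827 CPM per library before TMM scaling (3 counts, covering counting error only). The number of Slc25a genes with any count was 39, 42 and 43 in OcKO and 38, 35 and 38 in Control. The number of all genes with any count was likewise higher in every OcKO library (19915 to 22393 in OcKO, 18330 to 19351 in Control).

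Slc25a5 had the highest level per length, 139.4 ± 19.2 RPKM in OcKO and 110.1 ± 11.8 RPKM in Control. Slc25a17, the peroxisomal carrier of coenzyme A, FAD and NAD, came next at 96.8 ± 23.2 RPKM in OcKO and 88.4 ± 3.44 RPKM in Control. Slc25a31 followed at 73.1 ± 24.8 RPKM in OcKO and 66.2 ± 19.9 RPKM in Control, and Slc25a15, the ornithine carrier of the urea cycle, at 66.6 ± 14.0 RPKM in OcKO and 63.5 ± 2.70 RPKM in Control. In OcKO the spreads of Slc25a17, Slc25a31 and Slc25a15 ran into each other, so their order is not settled there. In Control the wide spread of Slc25a31 reached those of Slc25a17 and Slc25a15, so its place is not settled there either. In Control, Slc25a5 and Slc25a17 were separated by more than their SDs.

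**Figure D2:**
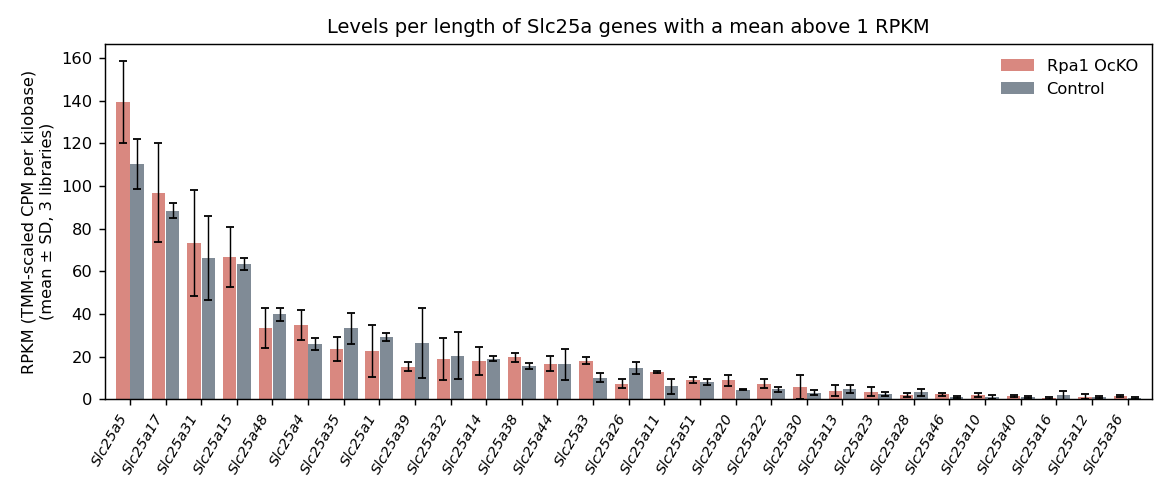
Level per length (RPKM, mean of 3 libraries, error bars SD) of Slc25a genes with a mean above 1 RPKM over all libraries (1 is not shown), OcKO left of Control within each gene. Slc25a5 leads in both groups, and the level falls off from Slc25a15 (66.6 RPKM in OcKO, 63.5 in Control) to Slc25a48 (33.6 RPKM in OcKO, 39.8 in Control).

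The filter on low counts left 37 of the 47 genes in the fit over 16060 genes. Of the 10 left out, 7 had some counts. Slc25a27, Slc25a29 and Slc25a42 passed the filter only through their OcKO libraries, so their differences follow in part from how they entered the fit and are given as descriptions. edgeR called 0 of the 37 at an adjusted p under 0.05 in either direction, against 0.137% of all tested genes higher and 0.00623% lower. At unadjusted p under 0.05, 5 were higher and 1 was lower, where 5.93% and 5.21% of all tested genes were. Leaving out the 3 genes that entered through OcKO, 2 were higher (Slc25a3 and Slc25a20) and 1 lower (Slc25a26).

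DESeq2's Wald test called 4 as higher and 0 as lower, against 2.97% and 1.69% of all tested genes. These were Slc25a3 and the 3 that entered through OcKO. limma voom called 0. The libraries did not overlap in 10 genes that were higher and 1 that was lower, against 10.7% and 8.67% of all tested genes. Without the 3 genes that entered through OcKO, 7 of 34 were higher without overlap. Of the log2 fold changes, 24 were positive and 13 negative, with a median of 0.14, where the median over all tested genes was 0.01 and 50.8% were positive. In the same 34 genes, 21 were positive and 13 negative, with a median of 0.12. With library size as the only scaling, the median of all genes was 0.18, and there were 28 positive and 9 negative members with a median of 0.30, which is 0.12 above all genes (0.13 above them with TMM).

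**Figure D3:**
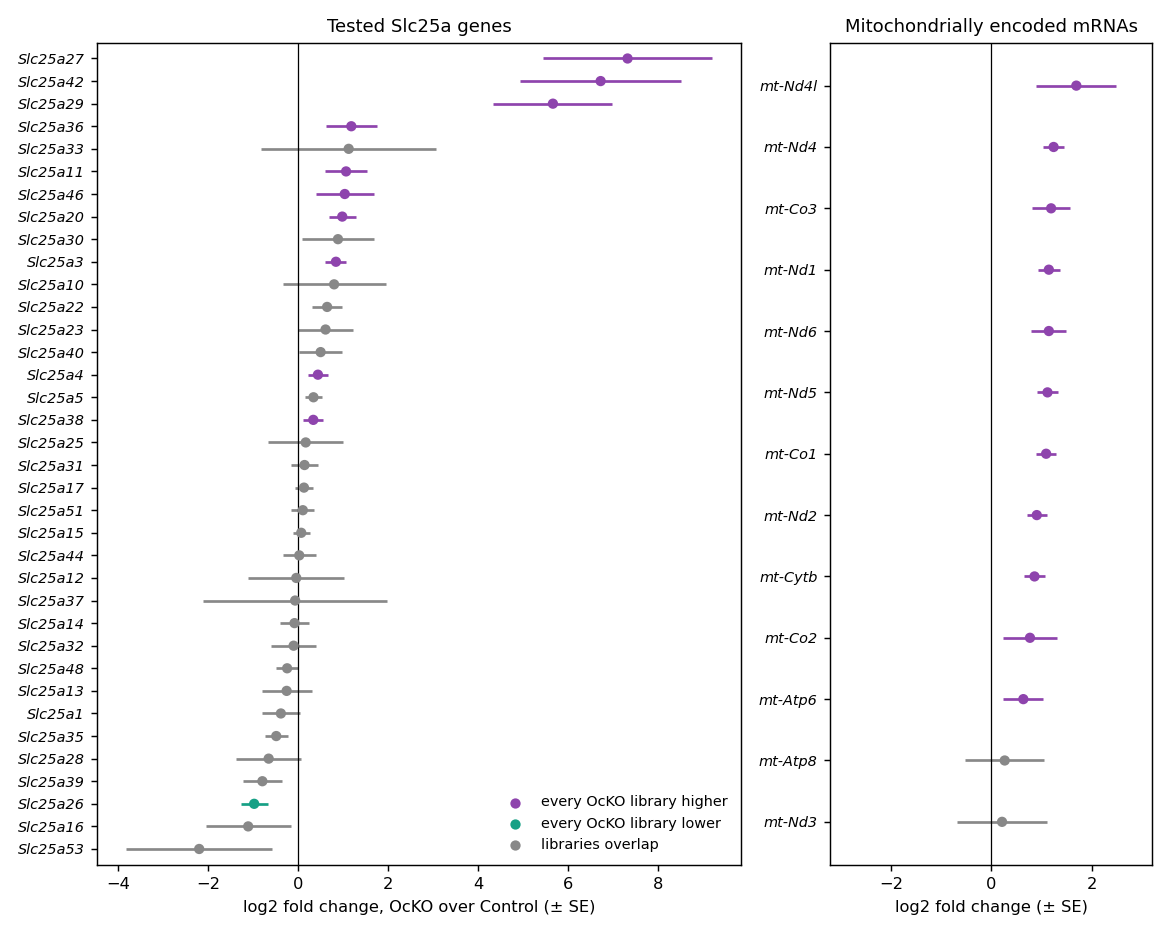
Log2 fold change, OcKO over Control, with SE from edgeR, for the tested Slc25a genes (left, 1 not shown) and the 13 mitochondrially encoded mRNAs (right), each panel with its own linear axis. Colour marks genes whose libraries do not overlap between groups; most of the Slc25a genes and all 13 mitochondrial mRNAs lie above 0, and the 3 Slc25a genes above 5 are those nearly silent in Control.

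All 4 carriers that serve ATP synthase directly had positive log2 fold changes, where 50.8% of all tested genes did. This was not particular to them. The 5 tested carriers of other amino acids and acylcarnitine and the 2 tested ATP-Mg carriers were also all positive. Among these, Slc25a29 entered the fit only through its OcKO libraries, so its sign follows from the filter. Slc25a44 lay near 0 (log2 fold change 0.025, SE 0.364). The 2 iron carriers and the 3 tested members with no substrate assigned were all negative. Of the iron carriers, Slc25a37 lay near 0 (log2 fold change -0.066, SE 2.04). Untested members with no substrate assigned had more counts in OcKO, apart from Slc25a43 with 0 counts in both groups. Slc25a45 had 270 summed counts in OcKO and 5 in Control, Slc25a47 106 and 2, Slc25a34 70 and 2, and Slc25a54 25 and 0. Slc25a3 (chromosome 10, 91116574 to 91124059, minus strand, GRCm38) encodes the phosphate carrier of the inner membrane. It held 95.3, 94.7 and 110.4 CPM in the OcKO libraries and 61.1, 42.1 and 64.7 CPM in the Control libraries. All OcKO libraries lay above all Control libraries, with means of 100.1 ± 8.89 CPM in OcKO and 55.9 ± 12.2 CPM in Control (SD, n = 3 each). The fold was 1.79 (log2 fold change 0.84, SE 0.23, edgeR unadjusted p = 0.0076, adjusted p = 0.210). DESeq2 gave an adjusted p of 0.024, and the unadjusted edgeR p stayed under 0.05 in 6 of 6 fits that left out 1 library (0.0096 to 0.026).

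The ADP/ATP carriers exchange matrix ATP for cytosolic ADP. Slc25a5 (chromosome X, 36795651 to 36798807), the isoform found in most tissues, held 249.4, 246.0 and 193.1 CPM in OcKO and 198.4, 160.2 and 185.0 CPM in Control. OcKO library 3 lay within the Control range, and the log2 fold change was 0.34 (SE 0.18, adjusted p in edgeR = 0.575). Slc25a4 (chromosome 8, 46206797 to 46211284), the isoform of heart and muscle, held 101.2, 71.1 and 74.5 CPM in OcKO and 58.8, 55.1 and 68.0 CPM in Control. Its libraries did not overlap, with a log2 fold change of 0.44 (SE 0.23, adjusted p in edgeR = 0.548). Slc25a31 (chromosome 3, 40708855 to 40726096), the germ cell isoform known from mouse testis, held 137.4, 215.1 and 114.2 CPM in OcKO and 106.3, 128.5 and 188.0 CPM in Control. The groups overlapped throughout, with a log2 fold change of 0.14 (SE 0.31, adjusted p in edgeR = 0.926). Leaving out OcKO library 2 or Control library 1 turned its sign.

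The mix of these isoforms was similar in both groups. Slc25a5 held 56.5% ± 2.87 of the ADP/ATP carrier level per length in OcKO and 54.8% ± 6.42 in Control. Slc25a31 held 29.1% ± 5.99 in OcKO and 32.4% ± 6.51 in Control, and Slc25a4 held 14.3% ± 3.12 in OcKO and 12.8% ± 0.177 in Control (SD, n = 3 each). All ranges overlapped. How reads that fit several of these related genes were counted is not stated in the sources at hand. The pseudogene Slc25a5-ps had 2, 22 and 3 counts in OcKO and 0 in each Control library. Slc25a23 and Slc25a25, calcium-regulated ATP-Mg carriers that adjust the matrix pool of adenine nucleotides, were low, with 19.4 ± 11.5 and 5.65 ± 4.24 CPM in OcKO and 12.7 ± 4.77 and 5.03 ± 2.28 CPM in Control. Slc25a24, of the same kind, had at most 12 counts in a library.

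**Figure D4:**
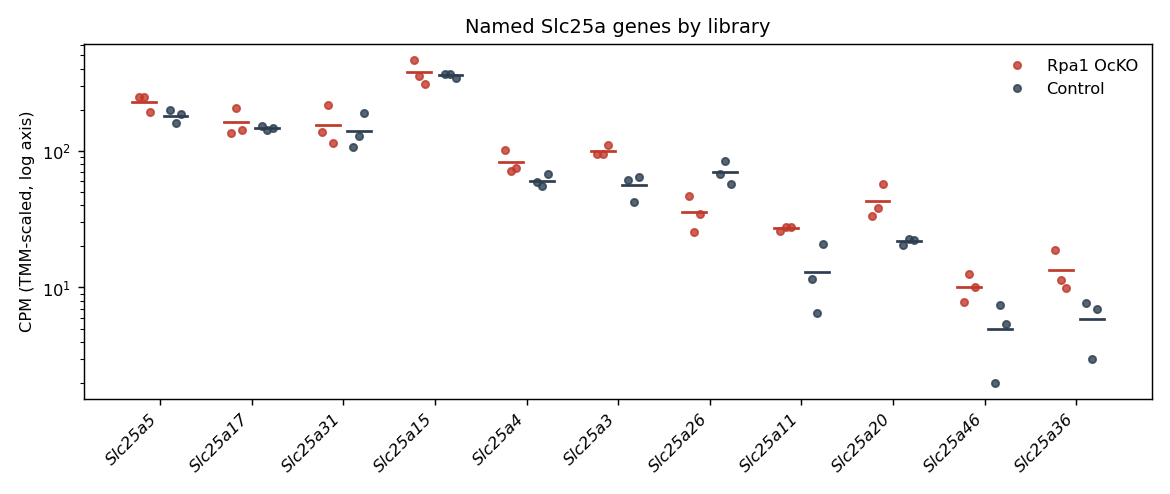
CPM per library (points, log axis) and group mean (line) of the named Slc25a genes whose higher group mean was 5 CPM or more, ordered by level per length, OcKO left of Control within each gene. Slc25a3, Slc25a4, Slc25a11, Slc25a20, Slc25a36 and Slc25a46 have all OcKO points above all Control points, and Slc25a26 has them below.

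Slc25a20 (chromosome 9, 108662088 to 108684641, plus strand) encodes the carnitine-acylcarnitine carrier, which brings fatty acids into the matrix for oxidation. It held 33.1, 38.3 and 57.2 CPM in OcKO and 20.4, 22.7 and 22.1 CPM in Control. Every OcKO library was above the narrow Control range, and OcKO library 3 was the highest. The fold was 1.97 (log2 fold change 0.98, SE 0.30, edgeR unadjusted p = 0.0126, adjusted p = 0.263, DESeq2 adjusted p = 0.052). The unadjusted p passed 0.05 in 5 of 6 fits without 1 library and reached 0.0505 in the other.

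Among the other amino acid carriers, Slc25a15 had the highest CPM of the whole family, with 461.9, 354.9 and 308.1 CPM in OcKO and 368.5, 363.8 and 340.1 CPM in Control. Its groups overlapped (log2 fold change 0.07, SE 0.19). Slc25a38, the glycine carrier used in heme synthesis, stood at 54.1 ± 5.74 CPM in OcKO and 42.9 ± 3.48 CPM in Control, without overlap (log2 fold change 0.34, SE 0.22, adjusted p in edgeR = 0.664). Slc25a44, which carries branched-chain amino acids, stood at 59.9 ± 12.3 CPM in OcKO and 58.9 ± 26.3 CPM in Control.

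The carriers of di- and tricarboxylates, aspartate and glutamate gave 3 positive and 3 negative log2 fold changes among the 6 tested. In 1 of the 6 every OcKO library was higher, as in 10.7% of all tested genes, and in 0 every OcKO library was lower (8.67% of all). Slc25a11 (chromosome 11, 70644196 to 70647479, minus strand) is the oxoglutarate-malate carrier of the malate-aspartate shuttle, which moves reducing equivalents into the matrix. It held 25.9, 27.5 and 27.7 CPM in OcKO and 11.5, 6.51 and 20.8 CPM in Control. The OcKO libraries were tightly grouped and the Control libraries spread widely below them (log2 fold change 1.07, SE 0.46, edgeR unadjusted p = 0.052, adjusted p = 0.455). The gene lies 4.65 Mb from Rpa1 on the same chromosome. It shares 189 of its 2120 exonic bases with Rnf167 on the opposite strand, which had 3182, 2367 and 2344 counts in OcKO and 2396, 3094 and 2525 in Control. The library kit does not mark strand, and the part of either fact in the difference was not tested.

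The aspartate-glutamate carriers of the same shuttle varied between libraries. Slc25a12 held 0.434, 7.28 and 18.1 CPM in OcKO and 7.11, 13.1 and 6.40 CPM in Control. Slc25a13 held 8.15, 26.8 and 10.9 CPM in OcKO and 25.8, 16.8 and 12.1 CPM in Control. The Slc25a12 share of the pair, per length, ran between 2.68% and 46.3% over the OcKO libraries and between 12.5% and 28.7% over the Control libraries. Slc25a1, the citrate carrier, stood at 48.9 ± 26.5 CPM in OcKO and 63.7 ± 3.98 CPM in Control. Slc25a22, a glutamate carrier, stood at 43.5 ± 12.4 CPM in OcKO and 27.8 ± 6.69 CPM in Control (log2 fold change 0.64, SE 0.33), with overlap in both genes.

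Slc25a26 (chromosome 6, 94500331 to 94604672, plus strand) was the only tested member whose OcKO libraries all lay below the Control libraries. It encodes the S-adenosylmethionine carrier, which supplies the methyl donor for methylation inside mitochondria. It held 46.8, 25.5 and 34.7 CPM in OcKO and 68.1, 84.6 and 57.7 CPM in Control. The level was 1.97-fold lower (log2 fold change -0.98, SE 0.30, edgeR unadjusted p = 0.0124, adjusted p = 0.260, DESeq2 adjusted p = 0.072). In 5 of 6 fits without 1 library the unadjusted p was under 0.05, and it reached 0.058 in the other. It shares 144 of 4807 exonic bases with Lrig1 on the opposite strand, whose counts were 3162, 4623 and 3978 in OcKO and 4488, 4677 and 6487 in Control. The share of the difference that comes from those bases was not tested.

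The other carriers of cofactors and nucleotides gave no common direction. Slc25a36, which carries pyrimidine nucleotides used for mitochondrial DNA and RNA, held 18.9, 11.3 and 9.85 CPM in OcKO and 7.75, 3.01 and 6.91 CPM in Control. The groups did not overlap (log2 fold change 1.18, SE 0.57, adjusted p in edgeR = 0.512). Its relative Slc25a33 was low and erratic, with 4.09, 1.496 and 0.0246 CPM in OcKO and 0.441, 0 and 2.13 CPM in Control. Slc25a17 held 135.5, 205.9 and 142.7 CPM in OcKO and 153.0, 141.5 and 147.8 CPM in Control, so OcKO library 2 alone stood above the Control range (log2 fold change 0.13, SE 0.21, adjusted p in edgeR = 0.896). Without that library the sign turned.

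Slc25a51, the NAD carrier, stood at 48.9 ± 7.79 CPM in OcKO and 45.5 ± 8.04 CPM in Control, and Slc25a32, linked to folate and FAD, at 56.1 ± 28.8 CPM in OcKO and 60.1 ± 32.5 CPM in Control. For the glutathione carriers, Slc25a39 held 90.5% ± 3.65 of the pair's level per length in OcKO and 94.9% ± 3.29 in Control, with Slc25a40 making up the rest. Control library 2 was alone at 125.4 CPM of Slc25a39, against 36.8 to 48.1 CPM in OcKO and 42.0 to 51.0 CPM in the other Control libraries.

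The mitoferrins bring iron into mitochondria. Slc25a28, the form found in most tissues, held nearly all of their level per length, 96.9% ± 2.68 in OcKO and 97.1% ± 4.87 in Control. It was low, at 3.09 ± 1.13 CPM in OcKO and 4.87 ± 2.19 CPM in Control. Slc25a37, the form of red cell precursors, had at most 49 counts in a library. Slc25a46, an outer membrane protein that takes part in mitochondrial fission and lipid traffic, held 7.81, 12.5 and 10.1 CPM in OcKO and 2.01, 7.38 and 5.42 CPM in Control. These groups did not overlap (log2 fold change 1.04, SE 0.64, adjusted p in edgeR = 0.641).

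Some carriers had next to no RNA in Control. Of the 47 genes, 10 had 3 or fewer counts over the Control libraries, and 3 of these had at least 10 counts in every OcKO library, where 29534 and 223 of all 49315 genes did. Counts in any library were found for 44 of the 47 and for 27431 of all genes. The whole set thus holds many silent genes and is not a like set. Slc25a29 (chromosome 12, 108825873 to 108835883), which carries basic amino acids, had 99, 76 and 32 counts in OcKO and 1, 0 and 2 in Control. All OcKO libraries were above Control, and the ratio of total counts, corrected for library size, was 57.9 (exact 95% counting interval 19.5 to 283). Even so its OcKO level was 1.57 ± 0.742 CPM, far under the abundant carriers.

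Slc25a42 (chromosome 8, 70184340 to 70212305), which carries coenzyme A into mitochondria, had 227, 24 and 38 counts in OcKO and 0, 2 and 0 in Control. Slc25a27 (chromosome 17, 43641900 to 43667015), an uncoupling-protein-like carrier best known from brain, had 218, 30 and 10 counts in OcKO and 1, 0 and 0 in Control. The ratios were 121 (interval 33.2 to 1010) for Slc25a42 and 216 (38.5 to 8580) for Slc25a27. These intervals, like that of Slc25a29, cover counting error and not the spread between mice. All 3 genes were picked for low Control counts, so high ratios follow in part from that choice. OcKO library 1 held 78.5% of the OcKO counts of Slc25a42 and 84.5% of those of Slc25a27, so the size of either ratio rests mostly on 1 mouse, although all 3 OcKO libraries exceeded Control.

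In the remaining genes of this kind the counts came from 1 or 2 OcKO libraries. Slc25a18, a glutamate carrier, had 164, 0 and 53 counts in OcKO and 0 in each Control library. With 3 counts set for the Control group, the ratio of summed counts, corrected for library size, was 60.6. The OcKO counts carry no error in this ratio, so it is not a lower limit. Slc25a18 shares 32 of its 1911 exonic bases with the abundant Atp6v1e1 on the opposite strand. Slc25a47, described mainly from liver, had all its 106 OcKO counts in library 3, and Slc25a34 had 69 of its 70 there, with 2 Control counts for each. Slc25a54 had 13, 12 and 0 counts in OcKO and 0 in Control, with a ratio of 6.99 on the same terms as for Slc25a18.

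**Figure D5:**
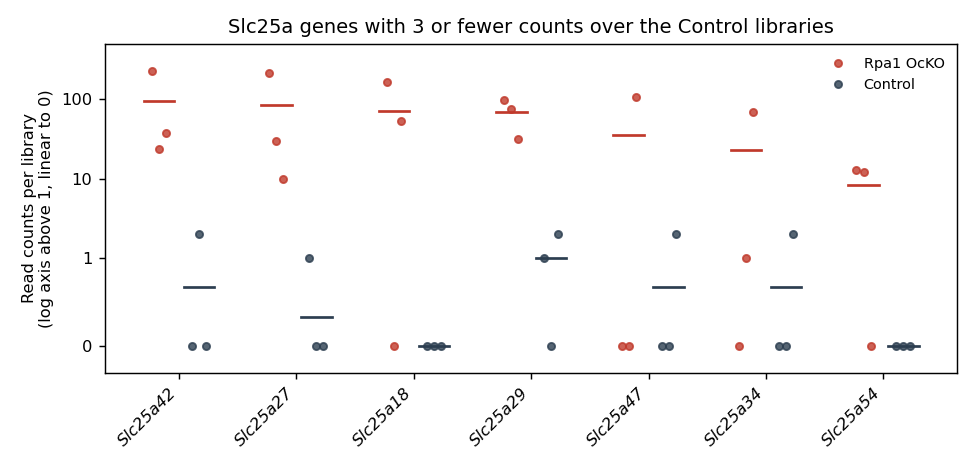
Read counts per library (points; log axis above 1, linear to 0) and group mean (line) of the 7 Slc25a genes with 3 or fewer counts over the Control libraries and some in OcKO, OcKO left of Control within each gene. Slc25a27, Slc25a29 and Slc25a42 have at least 10 counts in every OcKO library, and the other 4 have 0 or 1 in at least 1 OcKO library.

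The other uncoupling-protein-like carriers were present in both groups. Slc25a14 stood at 42.6 ± 15.3 CPM in OcKO and 45.03 ± 2.86 CPM in Control, and Slc25a30 at 10.1 ± 9.67 CPM in OcKO and 5.46 ± 2.38 CPM in Control, with overlap in both. Among the 8 genes with no substrate assigned here, Slc25a48 and Slc25a35 were the abundant ones. Slc25a48 stood at 113.3 ± 31.8 CPM in OcKO and 134.2 ± 10.03 CPM in Control (log2 fold change -0.24, SE 0.24). Slc25a35 stood at 87.2 ± 21.0 CPM in OcKO and 122.1 ± 26.0 CPM in Control (log2 fold change -0.49, SE 0.25). It lies 6.32 Mb from Rpa1 and shares 1151 of 3677 exonic bases with Rangrf, which had 0 counts in every library. How reads in shared bases were counted is not stated, so that 0 need not mean that Rangrf was silent.

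Genes that act around the carriers were read from the same fit. The route that imports carriers, the TOM receptors and pore, the small TIM chaperones and TIM22, had 16 tested genes with a median log2 fold change of 0.33, 11 positive and 5 negative. edgeR and limma voom called 0 of them. At unadjusted p under 0.05 in edgeR, 3 were higher and 0 lower, where 5.93% and 5.21% of all tested genes were, and DESeq2 called 1 as higher, where it called 2.97% of all. Tomm20, a receptor of the import pore, held 33.0, 18.2 and 24.6 CPM in OcKO and 13.0, 4.88 and 5.76 CPM in Control. Its libraries did not overlap (log2 fold change 1.68, SE 0.51, adjusted p in edgeR = 0.254, DESeq2 adjusted p = 0.030). Tomm22, a further receptor of that pore, held 85.9, 91.9 and 74.8 CPM in OcKO and 40.5, 59.5 and 52.9 CPM in Control, without overlap (log2 fold change 0.72, SE 0.23, adjusted p in edgeR = 0.276).

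Other transporters of the mitochondrial membranes (pyruvate, calcium and iron-sulphur carriers, sideroflexins and VDAC pores) had 18 tested genes with a median log2 fold change of -0.10, 9 positive and 9 negative. edgeR, limma voom and DESeq2 each called 0. At unadjusted p under 0.05 in edgeR, 0 were higher and 1 lower (5.93% and 5.21% of all tested genes). That 1 was Micu2, a gatekeeper of the calcium uniporter, at 13.2, 12.5 and 11.3 CPM in OcKO and 42.1, 24.8 and 15.5 CPM in Control (log2 fold change -1.15, SE 0.43, adjusted p in edgeR = 0.369). Sfxn2, a sideroflexin, held 1.42, 2.18 and 0.148 CPM in OcKO and 6.04, 4.59 and 6.77 CPM in Control (log2 fold change -2.21, SE 1.03, adjusted p in edgeR = 0.495). Both had all OcKO libraries below all Control libraries.

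Nuclear genes for copying and transcribing mitochondrial DNA, 18 of them tested, had a median log2 fold change of -0.07, with 8 positive and 10 negative. edgeR, limma voom and DESeq2 each called 0. At unadjusted p under 0.05 in edgeR, 1 was higher and 2 lower (5.93% and 5.21% of all tested genes). Ssbp1, the mitochondrial single-stranded DNA-binding protein, held 35.7, 31.9 and 31.8 CPM in OcKO and 16.6, 24.2 and 19.7 CPM in Control, without overlap (log2 fold change 0.72, SE 0.28, adjusted p in edgeR = 0.403). Lonp1, the matrix protease that degrades TFAM, held 88.1, 37.6 and 117.7 CPM in OcKO and 175.0, 212.2 and 111.2 CPM in Control, with overlap (log2 fold change -1.03, SE 0.43, adjusted p in edgeR = 0.430). The relatives of the family outside the symbol rule, of which 3 of 5 were tested, had a median of 0.48. Mtch1 and Mtch2, outer membrane insertases, stood at 10.7 ± 7.98 and 7.89 ± 2.20 CPM in OcKO and 5.64 ± 1.27 and 6.13 ± 3.05 CPM in Control, and edgeR, limma voom and DESeq2 called 0 of the 3, with 0 at unadjusted p under 0.05 in edgeR.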

How the data were processed

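The submitters' processing notes name Trimmomatic 0.36 for trimming, STAR 2.5.2b with the GRCm38 build for alignment, and featureCounts (Subread 1.5.2) for counting. The authors deposited raw counts per gene, as a table and as sample files that differed in 0 values. Settings for strand and multi-mapping reads were not stated in these notes, and per the labels' protocols the library kit was one for low input, which does not mark strand.

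From the counts, OcKO and Control libraries (3 mice each) were compared with edgeR 4.0.16 in R 4.3.3 (quasi-likelihood test, TMM, filterByExpr at 0.253 CPM, no covariate), with Benjamini-Hochberg adjustment over 16060 genes and a call at 0.05. DESeq2 1.42.0 and limma voom 3.58.1 were run on the same genes. RPKM is TMM-scaled CPM per kilobase of deposited gene length. The SE comes from the fold change and the F statistic. Other alternatives were library size alone, DESeq2 size factors, no filter, a 5 CPM minimum, the replicate number as a block and leaving out each library. At this depth 1 count was worth 0.0224 to 0.0276 CPM before TMM scaling. Counting intervals and limits for counts of 0 cover counting error only.

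The members and the lists around them were chosen with earlier results of these data known. Named genes were every member called, up to 6 in each direction with the largest log2 fold change among non-overlapping members of at least 5 CPM, the 6 with the smallest p, the 4 highest per length and the ADP/ATP and phosphate carriers. In each list around them the 2 with the smallest p were named, and other members are given as group values or counts. Slc25a12, Slc25a13, Slc25a33 and the low-count members were added after their values were seen. The script was tested on simulated data. RefSeq promoters were matched by symbol. The values of 1 member are not reported here, although it is included in the counts and sums.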

Additional observations from a re-analysis of the deposited data

How the results depend on the processing

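The count of Slc25a genes called by edgeR stayed at 0 in both directions under the scaling, filter and replicate block alternatives, with limma voom and in the 6 fits that left out 1 library; DESeq2 called 4 as higher. The 5 higher at unadjusted p under 0.05 became 9 with library size alone, 8 with no filter and 3 with the 5 CPM minimum. The 1 lower gene became 0 to 2 when 1 library was left out, and was 0 without Control library 2 and 2 without Control library 3 or OcKO library 1. The median log2 fold change of 0.142 became 0.300 with library size alone and 0.328 with no filter, and 0.227 to 0.404 without 1 library. Leaving out a library changes which genes are tested. An alternative chosen after seeing the data kept the same 37 genes and gave 0.219 to 0.384, all above the value with all libraries; the cause was not tested.

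Of 179 refits of the 14 named tested genes, 171 kept direction and side of the threshold and 4 (Slc25a3, Slc25a27, Slc25a29 and Slc25a42 with DESeq2) passed it. The other 4 turned sign: Slc25a31 at -0.030 without Control library 1 and -0.128 without OcKO library 2 (up to 0.418 over the 6 fits), Slc25a15 at -0.115 without OcKO library 1 (up to 0.190), and Slc25a17 at -0.046 without OcKO library 2 (up to 0.236). For the mitochondrial mRNAs the median log2 fold change lay between 0.945 and 1.26 over all alternatives.

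With the replicate number as a block (replicate block) edgeR called 0, with 5 higher and 1 lower at unadjusted p under 0.05 and a median of 0.136. Deviations of same-numbered libraries correlated at -0.037, -0.045 and -0.045, and no library correlated best with its own number. No pairing by number was thus seen, but with 3 libraries a group this check cannot exclude one. With 3 mice a group, genes of few counts are limited by depth: 10 members were not tested, 7 of them with some counts.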
